A study of Mus musculus with 2 samples.

Results

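The Mediator and RNA polymerase II genes are 43 of the 21911 protein-coding genes of the mouse annotation GENCODE M21. They were taken by symbol, with earlier results of these data known: 30 whose symbol is Med followed by a number, and the 13 genes Polr2a to Polr2m. Trimethylation of lysine 36 of histone H3 (H3K36me3) was mapped by chromatin immunoprecipitation and sequencing in E14TG2a.4, a male embryonic stem cell line of mouse strain 129/Ola. Stage is labelled embryonic and age 3.5 days. The labels name no treatment or genetic change and describe 2 biological replicates from separate biosamples of 1 donor, so the study holds 1 group and no comparison of conditions. Both replicates are of 1 line, and other lines or cell types were not part of it. Each value below is a share of bases in the peaks the authors called in that replicate's library on mm10, given with its mean ± SD over n = 2 where both are set together.

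Mediator is a large complex that passes signals from DNA-bound transcription factors to RNA polymerase II, and it is described as head, middle and tail modules on a scaffold subunit, with a kinase module that binds reversibly. RNA polymerase II transcribes protein-coding genes, and the repeated tail of its largest subunit is phosphorylated as the enzyme elongates. The methyltransferase Setd2 binds that phosphorylated tail and places H3K36me3 behind the moving polymerase, so the mark is known for lying over the bodies of transcribed genes and for growing toward their ends.

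The peak sets of the replicates held 107779 and 98185 peaks over 139 and 127 Mb. All 10 embryonic stem cell marker genes examined, among them Pou5f1, Nanog and Sox2, had at least 10% of their body in peaks in each replicate. The defining markers of other cell types were mostly at 0, the neural ones less so. All 8 fibroblast genes and all 6 primitive endoderm genes, Pdgfra being in both lists, were at 0% in each replicate. Of 5 trophoblast genes none reached 10% in both replicates, with Eomes at 0% and 14.1%, and of 6 neural genes Pax6 and Tubb3 did. Of the other neural genes, Neurod1 was at 18.7% and 0% and Nes at 4.92% and 0%, while Sox1 and Map2 were at 0% in both. The part of other cells in the values below was not tested.

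Marked genes are those with 10% or more of the annotated body in peaks in replicate 1 and also in replicate 2. This held for 40 of the 43 Mediator and polymerase genes, where the background over all coding genes was 37.2%. By family, 28 of 30 Mediator genes and 12 of 13 polymerase genes were marked, and the unmarked ones were Med12l, Med27 and Polr2i. At least 50% of the body was covered in both replicates in 26 of the 43, beside 19.3% of all coding genes. The median covered share of the 43 genes was 67.4% in replicate 1 and 63.7% in replicate 2 (65.5% ± 2.63, SD, n = 2). Among marked genes alone, the median was 69.0% and 66.7% in the Mediator and polymerase genes and 57.1% and 52.9% in all coding genes. No test was made of any difference from all coding genes, since peaks of 1 group allow none over samples and the genes had been chosen with results of these data known.

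**Figure D1:**
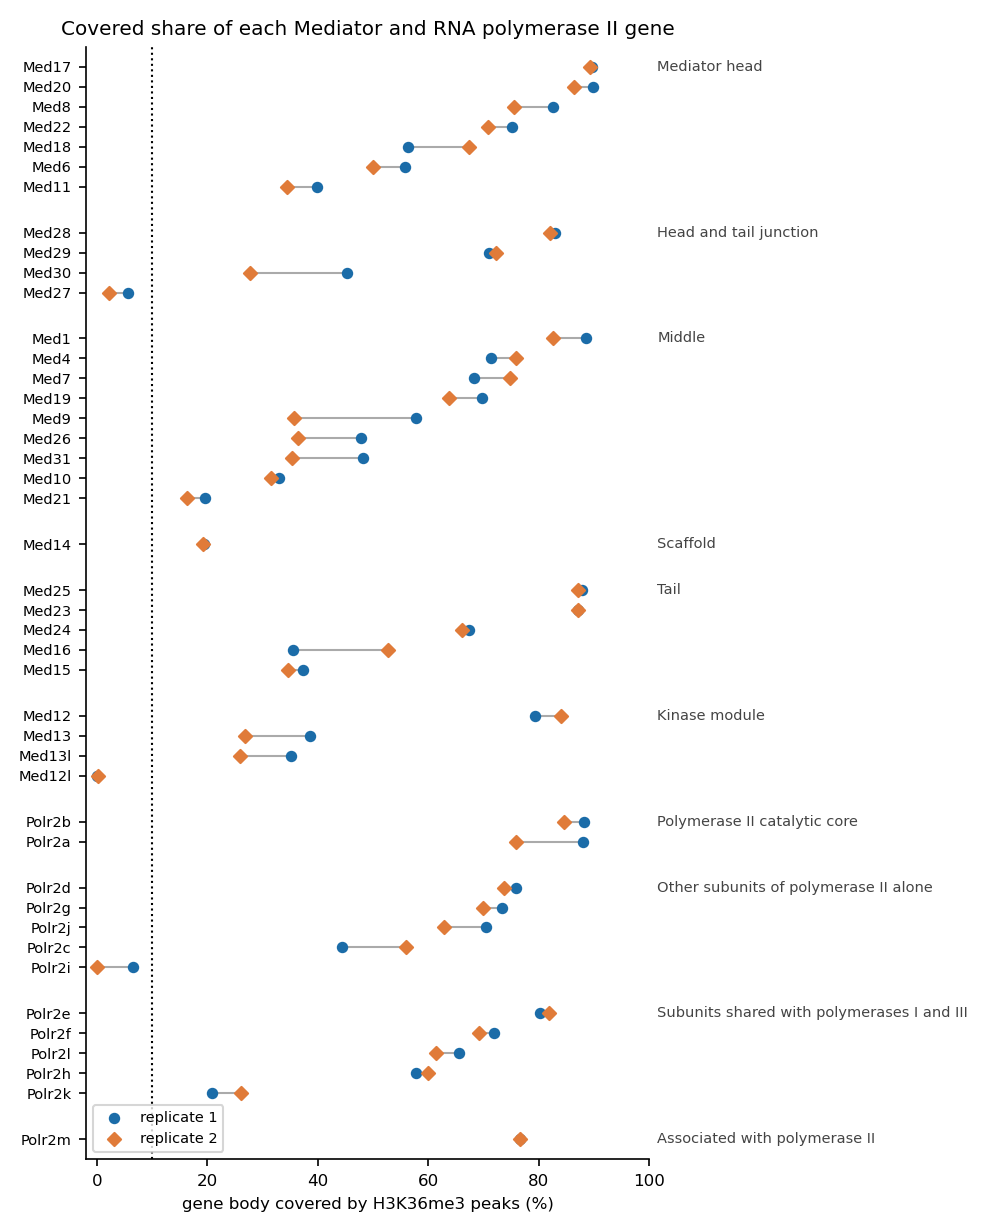
Share of each gene's annotated body in H3K36me3 peaks (x axis, percent), with replicate 1 as blue circles and replicate 2 as orange diamonds, grouped by the gene product's place in the complexes; the dotted line marks 10%. Med12l, Med27 and Polr2i lie left of the line in both replicates, and the other 40 genes lie right of it.

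The head module, which makes the main contact with the polymerase, had all 7 genes marked. Med17, a central head subunit, was covered over 89.7% and 89.4% of its 19581 bp (chr9:15260351-15279931, minus strand), the highest lower value of all 43 genes. Its peaks began in intron 1, 1834 and 1844 bp past the start, and ran nearly without a break to the end. Med11 had the lowest share in the head, 39.8% and 34.4% (37.1% ± 3.83, SD, n = 2) of a gene of 1809 bp. All of that coverage lay past the first 1089 and 1187 bp, and the 3′-most of 3 equal parts of Med11 was covered completely in both replicates.

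To show where the mark begins, 120 bases around its first covered base in replicate 1 are printed for 4 genes whose replicates began within 15 bp of each other, in the direction of transcription on GRCm38. Capitals are bases in the peaks of both replicates, lower case the bases that at least 1 replicate left out. Med17 is chr9:15278038-15278157 on the minus strand, Polr2h is chr16:20719450-20719569 on the plus strand, Polr2m is chr9:71484129-71484248 on the minus strand and Med25 is chr7:44891358-44891477 on the minus strand.
Med17: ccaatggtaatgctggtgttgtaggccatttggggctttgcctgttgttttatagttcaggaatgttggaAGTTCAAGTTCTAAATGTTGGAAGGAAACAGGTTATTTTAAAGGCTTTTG
Polr2h: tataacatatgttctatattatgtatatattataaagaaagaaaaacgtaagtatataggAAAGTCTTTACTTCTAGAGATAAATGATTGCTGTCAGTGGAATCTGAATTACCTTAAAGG
Polr2m: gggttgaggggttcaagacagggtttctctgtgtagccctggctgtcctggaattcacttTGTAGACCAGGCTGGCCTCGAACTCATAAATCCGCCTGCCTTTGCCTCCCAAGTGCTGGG
Med25: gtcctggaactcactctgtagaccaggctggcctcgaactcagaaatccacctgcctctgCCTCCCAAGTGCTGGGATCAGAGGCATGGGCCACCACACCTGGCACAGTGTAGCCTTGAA
All 4 windows lie in introns. In the genome file 115 of the 120 bases of the Polr2m window and 120 of those of Med25 are soft-masked as repeats, against 39 for Polr2h and 0 for Med17. Polr2m and Med25 share a run of 26 identical bases in these windows. Over the 40 marked genes, the first covered base was a soft-masked one in 12 genes in replicate 1 and 13 in replicate 2. Over all 43 genes, the median gene body was soft-masked over 24.3% of its bases. The count was not made over all marked coding genes, so it has no background.

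Among the other head genes, Med8 was covered over 82.7% and 75.6%, Med18 over 56.3% and 67.5%, and Med6 over 52.9% ± 4.03 (SD, n = 2). Med18 was the only head gene covered more in replicate 2. Med20, a partner of Med18 in the movable part of the head, was covered over 89.8% and 86.4% (88.1% ± 2.45, SD, n = 2). Another coding record, Gm20517, overlaps 12830 of the 12837 bp of Med20, and peaks carry no strand, so which of these records the coverage belongs to cannot be told apart. Med22 was covered over 75.1% and 70.8%, with its first covered base 1347 and 1582 bp past the start in intron 1. Its start (base 26910677 of chr2, minus strand) stands head to head with that of Rpl7a, a ribosomal protein gene, and the bases between the starts, chr2:26910678-26910763, are printed here on the strand of Med22 because peaks lay on either side of them but on none of them.
Med22 to Rpl7a: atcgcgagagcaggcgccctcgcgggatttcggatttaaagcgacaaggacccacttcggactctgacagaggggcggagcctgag
All 86 bases were outside the peaks of both replicates. Coverage within 500 bp of the start of Med22 was 21.2% and 20.2%, and it lay on the Rpl7a side.

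The middle module had all 9 genes marked, over a wide range. Med1, the subunit that nuclear receptors bind, was covered over 88.6% and 82.6% (85.6% ± 4.27, SD, n = 2) of its 41140 bp. Med21, which forms a hinge with Med7, was the lowest at 19.6% and 16.2% (17.9% ± 2.41, SD, n = 2). The annotated span of Med21 runs past its principal transcript, the one that the APPRIS annotation ranks as the main coding form. Peaks of Med21 began 6578 and 6857 bp past the start and ran to the end of the span, so the span of the principal transcript was covered over 3.88% ± 2.84 (SD, n = 2). Under that reading Med21 was not marked.

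Med10 showed the opposite case. Its covered share was 33.0% and 31.6% of the annotated span, which begins at an upstream start, and 70.6% ± 2.11 (SD, n = 2) of the principal transcript, which takes 45.7% of that span. From the start of the principal transcript, the first covered base of Med10 lay 1434 and 1536 bp away, against 8880 and 8982 bp from the annotated start. No base of the 5′-most of 3 parts of Med10 was in a peak, against 93.2% and 91.3% of the 3′-most part.

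Med9, another middle subunit, had the widest gap between replicates of the 43 genes, 57.7% against 35.6% (46.7% ± 15.6, SD, n = 2). Med31 followed the same order at 48.1% and 35.2% (41.7% ± 9.12, SD, n = 2). Med19, a peripheral middle subunit, was covered over 69.7% and 63.7%, and Tmx2 and Zdhhc5 overlap 985 bp of it. Med26, through which elongation factors reach the complex, was covered over 47.8% and 36.5% of its 53710 bp, with its 3′-most part at 60.6% and 60.2%. Med4 (71.3% and 75.8%) and Med7 (68.3% and 74.8%) were higher in replicate 2. The other 7 of the 9 middle genes were covered more in replicate 1.

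The scaffold gene Med14, which joins head, middle and tail, was covered over 19.4% and 19.3% of its 86705 bp (chrX:12675369-12762073, minus strand). The equal totals hid different places: of the Med14 bases in peaks of either replicate, 48.8% were in peaks of both, the lowest share among the 40 marked genes. Its peaks were many and short, 29 in replicate 1 and 26 in replicate 2, with the longest covered stretch 1.27 and 1.42 kb. Med14 lost its call when peaks with a −log10 q under 5 were left out, at 12.5% over both replicates.

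Of the 4 genes at the junction of head and tail, Med28 and Med29 were well covered, Med28 over 83.0% and 82.0% (82.5% ± 0.696, SD, n = 2) and Med29 over 71.0% and 72.2%. Med30 was covered over 45.3% and 27.7% (36.5% ± 12.5, SD, n = 2), the second-widest gap between replicates. Med27 was not marked, with 5.62% and 2.08% (3.85% ± 2.51, SD, n = 2) of its 177975 bp (chr2:29346819-29524793, plus strand).

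The coverage of Med27 lay near its start. The longest covered stretch was 3419 bp in replicate 1 and 2500 bp in replicate 2, and it began in intron 1, 3000 and 2935 bp past the start. The 5′-most of 3 parts of Med27 was covered over 14.2% and 4.81%, and the 3′-most over 1.08% and 1.42%. Of 32-base words sampled from Med27, 96.8% occurred once in the genome, against a median of 95.2% over the 43 genes and a lowest value of 73.5% for Med6.

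**Figure D2:**
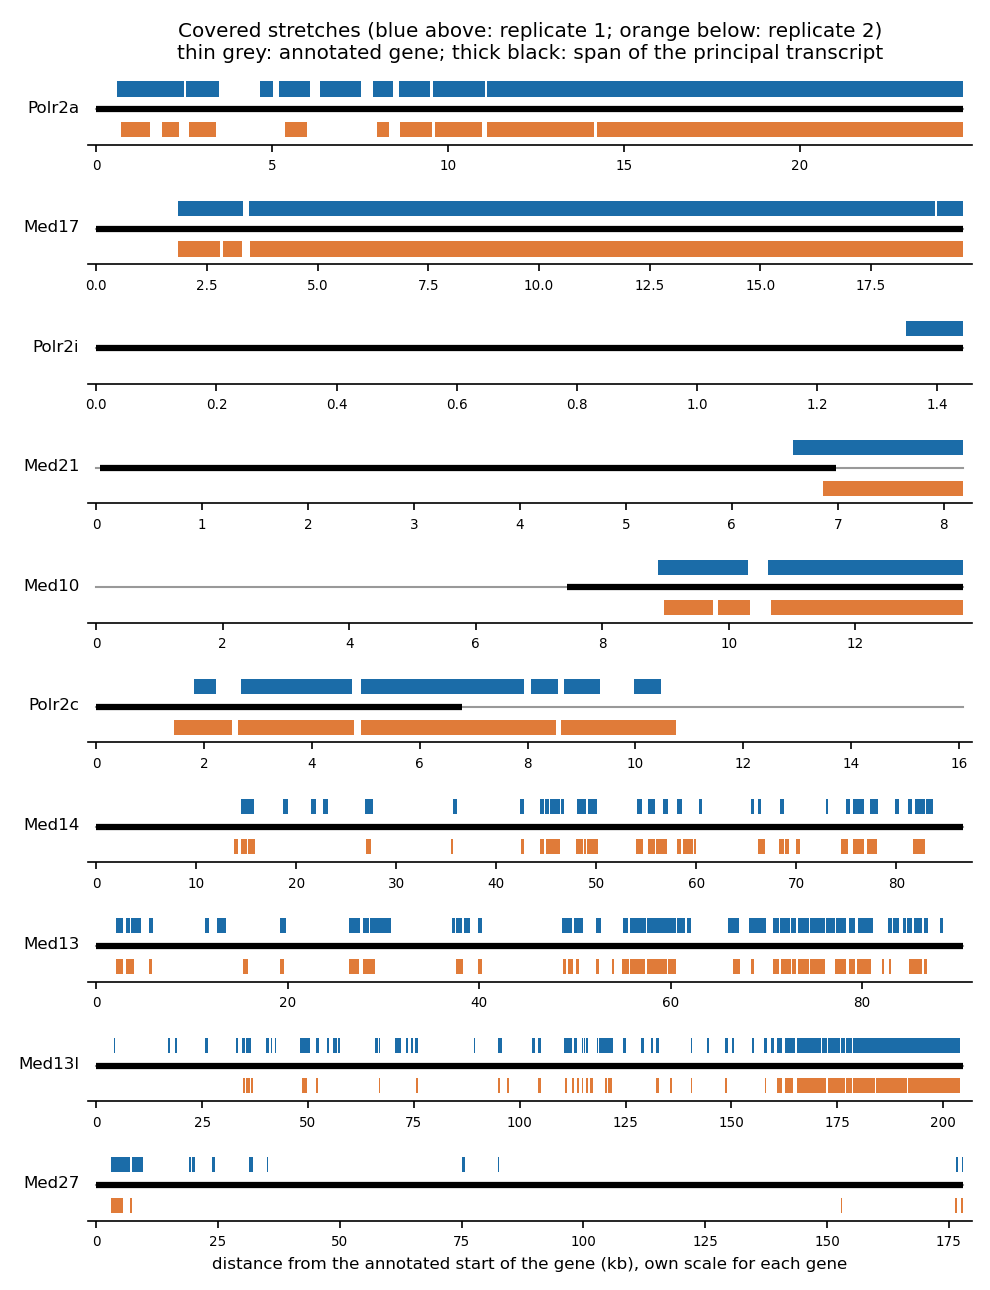
Covered stretches of 10 genes by distance from the annotated start (x axis, kb, a separate scale for each gene), with replicate 1 above and replicate 2 below the gene; the black bar is the principal transcript. Peaks of Med27 gather near its start, those of Med13l near its end, and those of Polr2c stop before the end of its annotated span.

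The tail module, the main landing place of activators, had all 5 genes marked. Med25 was covered over 87.9% and 87.1% (87.5% ± 0.599, SD, n = 2) and Med23, a subunit bound by activators, over 87.1% in both. Med24 stood in the middle of the module at 66.7% ± 0.973 (SD, n = 2). Med15 had the lowest mean at 37.2% and 34.6% of a gene of 81684 bp. Its first covered base lay 12520 and 26294 bp past the annotated start, and 2576 and 16350 bp past the start of the principal transcript, in intron 1 of the latter. Med16 was covered over 35.5% and 52.8% (44.1% ± 12.2, SD, n = 2), so it was below Med15 in replicate 1 and above it in replicate 2.

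The highest point of the tallest peak in Med25 lay in exon 10 in replicate 1, where its fold over background was 11.8. The 120 bases around that point, chr7:44884163-44884282 on the minus strand of GRCm38, are printed with the 85 coding exon bases in capitals, since this window shows the mark across an intron-exon border and all of it was in the peaks of both replicates.
Med25 peak: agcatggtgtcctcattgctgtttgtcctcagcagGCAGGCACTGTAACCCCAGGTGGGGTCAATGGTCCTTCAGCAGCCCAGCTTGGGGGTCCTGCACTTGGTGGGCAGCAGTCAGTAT

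The kinase module holds a pair of paralogs that stood far apart, Med12 and Med12l. Med12, which activates the module's kinase, was covered over 79.3% and 84.0% (81.7% ± 3.34, SD, n = 2) of its 23436 bp (chrX:101274030-101297465, plus strand). Its paralog Med12l had no covered base in replicate 1 and 0.107% in replicate 2, of 312858 bp (chr3:59005825-59318682, plus strand). The covered bases of Med12l were 1 stretch of 334 bp at its very end, with a peak fold of 3.67. All of that stretch lay in bases that another coding gene overlaps, so which gene it belongs to cannot be told apart. Of the sampled words of Med12l, 93.2% occurred once in the genome, and other coding genes overlap 36.1% of it.

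The other paralog pair, Med13 and Med13l, which link the kinase module to the core complex, did not show such a contrast. Med13 was covered over 38.6% and 26.9% (32.7% ± 8.28, SD, n = 2) of its 90570 bp, and Med13l over 35.2% and 25.9% (30.6% ± 6.54, SD, n = 2) of its 204760 bp. Med13 was slightly the higher in both replicates, and each gene was covered less in replicate 2. In Med13l the 3′-most of 3 parts was covered over 65.9% and 60.3%, and its longest stretch reached 13.1 and 12.3 kb. The kinase partners Cdk8 (31.6% and 20.7%), Ccnc (26.8% and 22.1%) and Cdk19 (12.4% and 10.2%) were marked, each below the median of the 43 genes.

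Both catalytic core genes of the polymerase were marked. Polr2a, which encodes the largest subunit and the tail that Setd2 binds, was covered over 88.1% and 76.0% (82.0% ± 8.55, SD, n = 2) of its 24641 bp (chr11:69733997-69758637, minus strand). The replicates differed in the 5′-most of 3 parts, 68.1% against 35.5%, and both covered the 3′-most part completely. The first covered base of Polr2a lay 582 and 699 bp past the start in intron 1, with Polr2e next among the marked genes at 763 and 700 bp. The tallest peaks of Polr2a reached 12.3-fold and 21.5-fold over background in the replicates, with their highest points 87.3% and 90.1% of the way along the gene. Polr2b, the second-largest subunit, was covered over 88.3% and 84.5% (86.4% ± 2.64, SD, n = 2).

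The bases just before the start of Polr2a, chr11:69758638-69758883 on the minus strand of GRCm38, are printed from the RefSeq promoter table with their 23 CG dinucleotides in capitals, as an example of a start that no peak of either replicate touched.
Polr2a: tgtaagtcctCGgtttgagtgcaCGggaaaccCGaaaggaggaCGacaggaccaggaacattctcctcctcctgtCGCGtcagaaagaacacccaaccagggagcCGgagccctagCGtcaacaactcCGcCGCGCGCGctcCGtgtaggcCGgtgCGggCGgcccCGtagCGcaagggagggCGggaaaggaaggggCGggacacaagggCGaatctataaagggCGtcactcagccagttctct
RefSeq promoters, 300 bases each, were matched by symbol for 36 of the 43 genes. Their median CG count was 22.5, against 22 in 6441 marked coding genes and 14 in 16521 coding genes with an entry, so it was close to that of marked genes at large. Searched on both strands without regard to overlap between motifs, the GC box GGGCGG was in 24 of the 36 (66.7%), in 67.8% of marked genes and in 48.2% of all. The ETS motif CCGGAAG was in 10 (27.8%, against 22.9% and 12.3%), CCAAT in 13 (36.1%, against 40.9% and 38.8%) and TATAAA in 5 (13.9%, against 6.23% and 12.9%). Of these motifs Polr2a held TATAAA and GGGCGG.

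Of the 5 other subunits found in polymerase II alone, 4 were marked. Polr2d was covered over 76.0% and 73.6% (74.8% ± 1.65, SD, n = 2), Polr2g over 73.3% and 69.9%, and Polr2j over 70.4% and 62.8%. In Polr2j 1 peak ran past the end into the neighbour Lrwd1, and the 5 kb downstream were covered over 98.7% and 100%. Polr2c, which pairs with Polr2j in the assembly platform, was covered over 44.4% and 55.9% (50.1% ± 8.18, SD, n = 2) of its annotated 16086 bp. That span overlaps Dok4, an adaptor protein gene, by 9708 bp, and the principal transcript, 42.2% of the span, was covered over 69.5% ± 8.14 (SD, n = 2).

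Polr2i, a small zinc-binding subunit, was the shortest of the 43 genes at 1443 bp (chr7:30231948-30233390, plus strand). It was covered over 6.58% in replicate 1, which is 95 bp at its end, and 0% in replicate 2. Tbcb overlaps 22.5% of Polr2i. A peak of 2666 bp in replicate 1 and one of 2145 bp in replicate 2 began at this end, 1348 and 1447 bp past the start of Polr2i, and ran on over the neighbouring gene Ovol3. The fold over background of these peaks was 5.98 and 5.94. The bases between Polr2i and Ovol3, chr7:30233391-30233438 on the plus strand of GRCm38, are printed because the peak of replicate 2 begins among them; capitals are the 44 bases in the peaks of both replicates.
Polr2i to Ovol3: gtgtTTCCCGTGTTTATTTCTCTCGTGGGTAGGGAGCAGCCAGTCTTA
In the 40 marked genes the median distance to the first covered base was 1620 and 1599 bp. In all marked coding genes under 3 kb it was 859.5 and 868 bp, counted inside the gene, and the marked gene Med11 lay past these medians. The distances of Polr2i were longer as well. They are not like for like with the medians, since Polr2i is unmarked and its value in replicate 2 lies past its end. Whether that peak belongs to Polr2i or to Ovol3 cannot be told apart from peaks, which carry no strand.

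**Figure D3:**
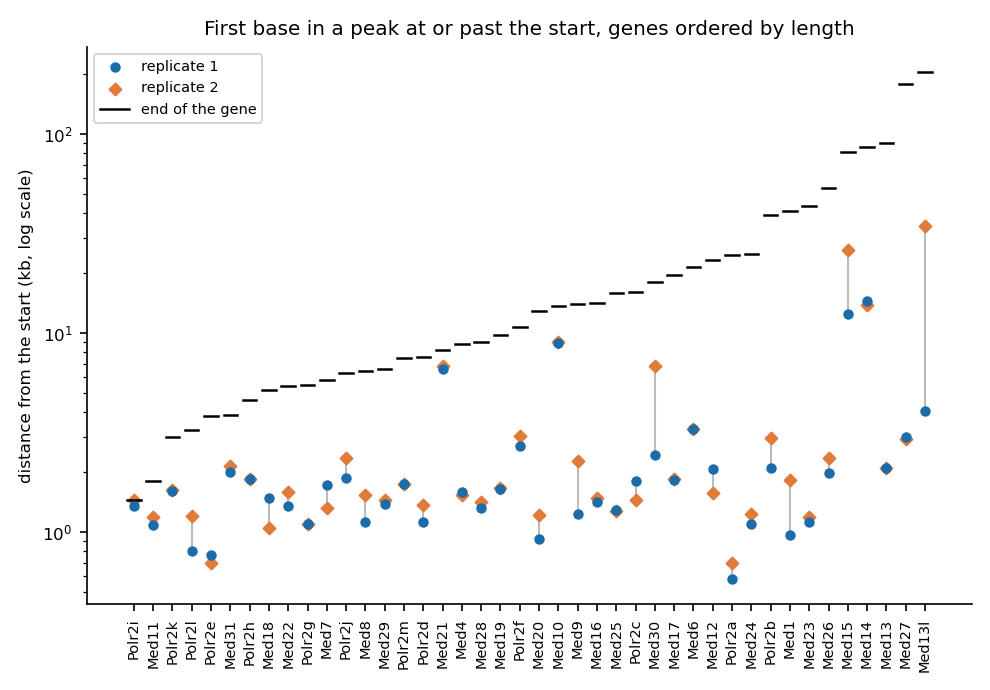
Distance from the annotated start to the first base in a peak, inside or past the gene (y axis, kb, log scale), for 42 genes ordered by length on the x axis (Med12l left out), with replicate 1 as blue circles, replicate 2 as orange diamonds and the gene's end as a black bar. Most genes lie between 1 and 3 kb, and in Polr2i, the shortest, the points lie at the gene's end.

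All 5 subunits shared with polymerases I and III were marked. Polr2e, a shared subunit of the jaw of the enzyme, was covered over 80.2% and 81.8% (81.0% ± 1.16, SD, n = 2), and Polr2k, a small zinc-binding subunit, over 20.8% and 26.1% (23.5% ± 3.72, SD, n = 2). In Polr2k the mark was a short stretch of 622 and 783 bp that began 1604 and 1616 bp past the start. Between them lay Polr2f (71.9% and 69.3%), Polr2l (65.6% and 61.4%) and Polr2h (58.9% ± 1.54, SD, n = 2). Replicate 2 was the higher in Polr2e, Polr2h and Polr2k. Polr2m (Gdown1), a protein associated with the polymerase that makes initiation depend on Mediator, was covered over 76.7% in both replicates by 1 peak each, and the peaks began at the same base, 1747 bp past the start.

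Each deposited peak also carries 1 fold over background. Every covered base was given the fold of its peak, the highest where peaks overlap, even if the peak's highest point lay outside the gene. The mean of these values over a gene's body, with bases outside peaks at 0, orders the genes by peak height as well as extent. Its median over the 40 marked genes was 4.94 in replicate 1 and 6.67 in replicate 2, beside 3.55 and 4.11 over all marked coding genes. By the lower of the replicates the 5 highest were Polr2e (10.6 and 13.6), Med17 (9.22 and 13.4), Med25 (9.07 and 11.7), Polr2a (8.70 and 12.7) and Polr2f (8.27 and 10.4). Polr2j, at 6.96 and 11.7, was above Polr2f in replicate 2. Polr2e ranked 196 in replicate 1 and 333 in replicate 2 among the 21911 genes by this value. Its tallest point lay past its 3′ end in both replicates. Across the 43 genes the fold went with the covered share (Pearson r 0.902, Spearman rho 0.893); both come from the same peaks, and genes are not independent replicates.

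Along the genes, coverage was lowest at the start. Over the 39 marked genes of at least 3 kb, the 5′-most of 3 equal parts was covered over 37.0% and 32.2%, the middle part over 70.1% and 68.9% and the 3′-most part over 81.6% and 80.1%. The rise from the 5′-most to the 3′-most part was 46.2 percentage points ± 2.42 (SD, n = 2), and over all marked coding genes of that length it was 36.1 ± 1.18. The 3′-most part was the higher in both replicates in 37 of the 39, with a background of 85.0%. Cut into 10 parts, the mean coverage was 11.9% and 9.11% in part 1 and 84.5% and 83.1% in part 10. Past the middle, the families had different values. In the Mediator genes the mean coverage went from 63.1% and 60.6% in the middle to 81.0% and 77.8% in the 3′-most of 3 parts. In the polymerase genes the middle part, at 86.0% and 87.5%, stood above the 3′-most part, at 82.9% and 85.3%, and of 10 parts their mean was 94.0% ± 4.53 in part 7 and 79.6% ± 1.84 in part 10 (SD, n = 2). The polymerase means include Polr2c, covered over 79.0% and 98.5% in its middle part. The principal transcript of Polr2c takes 42.2% of its span, so it ends within the middle part. Of 10 parts, part 6 and part 7 lie past that transcript. Part 6 was covered over 73.0% and 95.2%, and part 7 over 30.2% and 68.5%. The 3′-most of the 3 parts of Polr2c, also past that transcript, was at 0% and 0.541%. In the role groups without Polr2c the mean of the 3′-most part over both replicates was not below that of the middle part. It was 98.4% against 92.7% in the catalytic core, 82.4% against 80.8% in the shared subunits and 100% in both parts of Polr2m. By replicate, the shared subunits had 79.6% and 85.3% in the 3′-most part, against 79.9% and 81.7% in the middle part. Of 10 parts, the mean of the shared subunits was 100% in part 7, 74.6% in part 9 and 72.8% in part 10. The difference between the families was not tested.

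**Figure D4:**
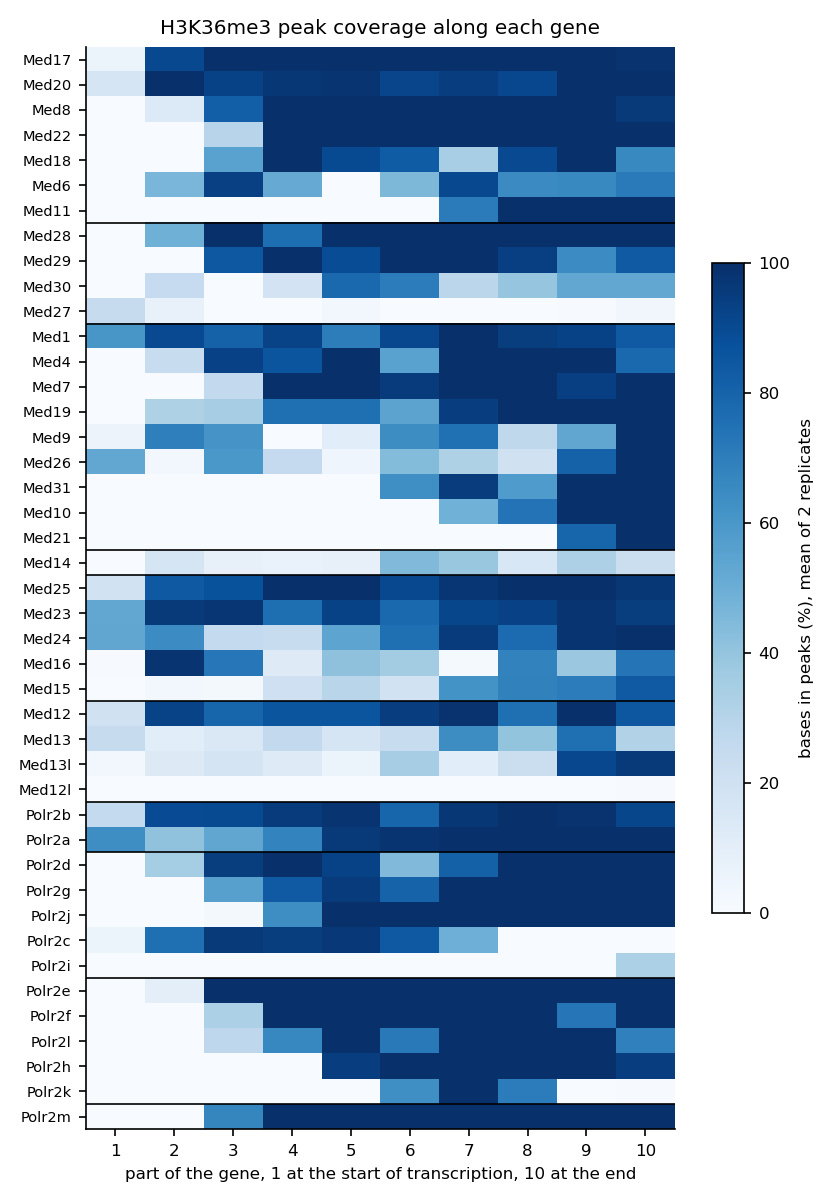
Bases in peaks (colour, percent, mean of 2 replicates) in each of 10 equal parts of the 43 genes, from the start of transcription at part 1 to the end at part 10, with lines between the groups of subunits. Most rows are pale at part 1 and dark from part 4 on; Polr2c is dark in the middle and pale at the end, and Med12l is pale throughout.

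The 3 largest rises were those of Polr2h (98.3 points ± 2.35, SD, n = 2), Polr2j (94.3 ± 7.99) and Med10 (92.2 ± 1.32). The 3 smallest were those of Polr2c, Med16 and Med1. Polr2c went the other way, at -61.1 points ± 9.93 (SD, n = 2), with 54.1% and 68.7% in its 5′-most part and 0% and 0.541% in its 3′-most part, which lies past the principal transcript. Med16 had a rise of 3.20 points ± 21.4 (SD, n = 2), smaller than the spread between replicates, since its 3′-most part was covered over 40.0% and 68.8%. In Med1 the rise was 12.0 points ± 1.05 from a 5′-most part already covered over 82.9% and 75.9%.

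The start itself lay outside the mark. No base within 500 bp of the start was covered in either replicate in 39 of the 40 marked genes, all but Med22, beside a background of 94.1%. The mean coverage of that window was 0.517% ± 0.0177 (SD, n = 2), against 2.56% over all marked coding genes. Around the annotated end it was 72.2% ± 2.57 and 58.5% ± 1.69. Downstream flanks of 5 kb free of other genes, found for 10 of them, were covered over 29.7% and 30.3% on average. Upstream flanks of that kind were covered over 6.14% and 6.13% in 17 genes, 15 of which had 0 in both replicates; the others were Med28 (86.8% and 81.0%) and Med26 (17.6% and 23.2%). Among the downstream flanks, that of Polr2m was covered over 81.0% and 70.4%, and those of Med30 and Med13l had 0 in both replicates. The flank values have no background over all marked coding genes beside them.

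The first covered base lay in intron 1 of the principal transcript in both replicates in 23 of the 40 marked genes, where the background was 46.6%. The replicates placed it a median of 186.5 bp apart, beside 214 bp over all marked coding genes, and within 100 bp in 16 of the 40, with a background of 35.2%. In Polr2g and Polr2h it differed by 3 bp. It differed by more than 1000 bp in 4 genes: Med13l (4067 and 34692 bp past the start), Med15, Med30 (2438 and 6842 bp) and Med9 (1236 and 2262 bp). All 4 began earlier in replicate 1. Other marked genes began earlier in replicate 2, among them Med12 (2069 and 1563 bp) and Med18 (1489 and 1050 bp). No background was counted for the bound of 1000 bp, and a cause of these differences was not tested. Over all marked coding genes the median distance from the start to the first covered base was 2072 and 2294 bp.

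Exons were more covered than introns when bases were pooled over the 40 marked genes, at 73.5% and 73.1% against 48.0% and 41.9%, a ratio of 1.64 ± 0.150 (SD, n = 2) beside 1.55 over all marked coding genes. The pooled ratio was 1.81 ± 0.185 in the Mediator genes and 0.976 ± 0.0522 in the polymerase genes, a difference that was not tested. Within the polymerase genes it was 1.09 in the catalytic core, 1.10 in the shared subunits and 1.07 in Polr2m. It was 0.795 in the other subunits found in polymerase II alone. That group holds Polr2c, whose annotated span runs past its principal transcript and whose exons were covered over 35.5% and 37.8%. It also holds Polr2g, with exons at 53.0% in both replicates and introns at 79.3% and 74.9%. In the other 2 marked genes of the group, Polr2d and Polr2j, exons were the more covered in both replicates. The part of any 1 gene in the ratio was not tested. Gene by gene, exons were the more covered in both replicates in 24 of the 40, near the background of 67.2%. With each gene weighted equally the ratio was 1.43, against 2.09 over all marked coding genes. Long genes weigh most in the pooled ratio: in Med13l exons were covered over 83.0% and 81.1% and introns over 31.3% and 21.4%. In Med25 it was the reverse, with exons at 80.8% and 80.1% and introns at 94.5% and 93.5%. In Polr2h exons stood at 25.9% and 29.3% and introns at 73.4% and 74.9%.

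The genes range in length from 1.4 kb (Polr2i) to 313 kb (Med12l). In the class of 3 to 10 kb all 18 genes were marked (background 33.8%), in that of 10 to 30 kb all 13 (48.1%) and in that of 30 to 100 kb all 7 (46.3%). The unmarked genes stood at the ends: 1 of 2 genes under 3 kb was marked (15.4%) and 1 of 3 genes of 100 kb or longer (18.4%). Within the class of 3 to 10 kb the median covered share was 70.7% and 70.3%, against 62.4% and 60.5% in all marked genes of that length. In the class of 30 to 100 kb it was 47.8% and 36.5%, against 48.9% and 43.5%, so there the shares were not above those of all marked genes. Across the 43 genes, covered share and log10 length were related weakly (Pearson r -0.253, Spearman rho -0.0696), a description over genes that share both libraries.

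**Figure D5:**
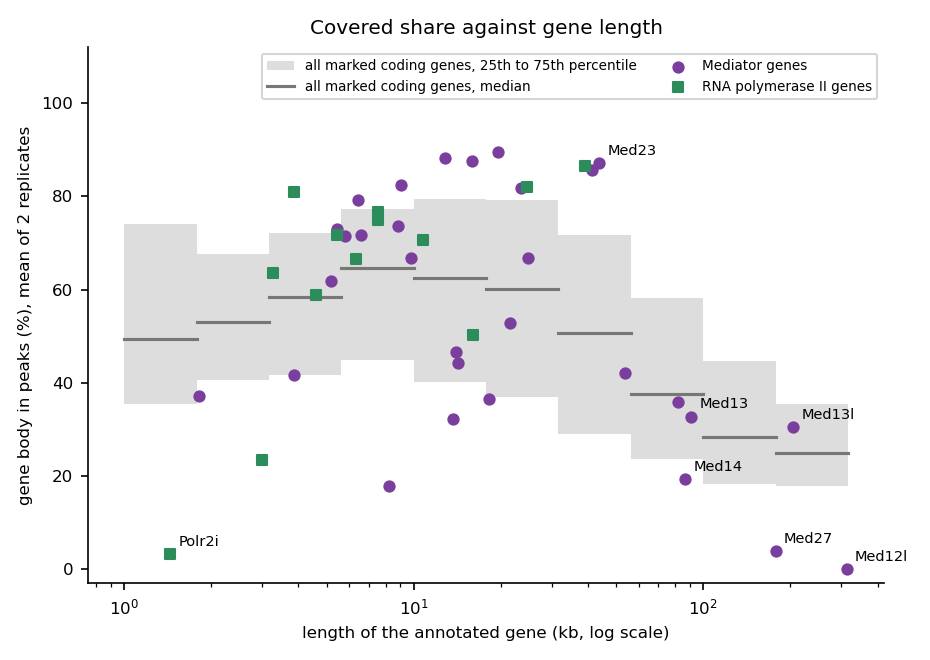
Mean covered share of 2 replicates (y axis, percent) against gene length (x axis, kb, log scale) for the 30 Mediator genes (circles) and 13 polymerase II genes (squares), with the median (line) and the 25th to 75th percentile (grey) of all marked coding genes in each range of length. Polr2i and Med12l, the shortest and the longest, lie near 0 with Med27, and Med13 and Med13l lie within the grey range.

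The replicates ordered the 43 genes alike, Pearson r being 0.961 and Spearman rho 0.963 over genes that share both libraries. Replicate 1 had the higher share in 29 of the 40 marked genes, where the background was 68.8%. The gap was widest in Med9, Med30, Med16, Med31 and Polr2a. Of these, Med16 was higher in replicate 2 and the other 4 in replicate 1. Depth of the libraries is not given in the sources used here, so a gap from depth and one from the cells cannot be told apart.

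Other genes of the transcription machinery, listed by function, gave similar counts: 73 of 82 were marked, with medians of 67.2% and 60.8%. All 8 polymerase I genes were marked, from Polr1b (91.7% and 92.1%) and Polr1a (84.1% and 83.2%) down to Znrd1 (59.9% and 61.2%) and Twistnb (36.9% and 38.0%). So were all 11 polymerase III genes, from Polr3a (93.6% and 93.9%) down to Polr3k (44.8% and 25.5%) and Polr3gl (22.0% and 13.2%). The polymerase assembly factors were marked in 8 of 8, with Gpn1 (92.6% and 91.9%) and Ruvbl1 (88.6% and 87.3%) at the top and Pih1d1 (48.0% and 45.2%) and Uri1 (44.5% and 38.6%) at the bottom.

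The general transcription factors, which load the polymerase at promoters, were marked in 17 of 21, highest in the helicase gene Ercc3 (90.7% and 90.0%) and in Tbp (84.1% and 83.9%), which binds the TATA box. Unmarked were Gtf2f2 (16.1% and 5.50%), Mnat1 (6.74% and 5.27%), and the germ cell paralogs Tbpl2 and Gtf2a1l, both at 0% in each replicate. The TAF subunits of TFIID were marked in 12 of 16, highest in Taf5 (75.4% and 74.1%) and Taf10 (72.4% and 77.0%). Unmarked were Taf3 (10.2% and 7.35%), Taf4b (9.44% and 8.85%), Taf9b (8.59% and 0%) and Taf7l, a paralog of Taf7 known from germ cells and fat, at 0% in both. Among kinases and phosphatases of the polymerase tail together with Setd2, 14 of 15 were marked, from Ccnk (87.5% and 88.5%) and Cdk9 (85.6% and 84.2%) to Cdk13 (16.3% and 14.1%), and Ctdspl had no covered base. Setd2, named for its role after its values were seen, was covered over 62.8% and 53.0%.

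Med12l was not the sole paralog at or near 0: Tbpl2, Gtf2a1l, Taf7l and Ctdspl were as well, while Tbp, Gtf2a1 (62.7% and 62.1%), Taf7 (72.2% and 52.3%), Ctdsp1 (32.6% and 34.4%) and Ctdsp2 (48.1% and 52.1%), their paralogs, were marked. The paralogs Taf4b and Taf9b were unmarked with some covered bases, and Taf4 (44.4% and 43.3%) and Taf9 (27.9% and 36.4%) were marked. These pairs were put side by side after their values were seen. Tbpl1 (21.8% and 17.5%), Polr3gl, Cdk19 and Med13l are paralogs that were marked.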

How the data were processed

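Per the file headers and labels, the authors deposited narrow peak sets on mm10 for each replicate, for both pooled, and for peaks found in both replicates. The main values come from the peaks of each replicate's own library that random divisions of its reads supported. Column 7 of each deposited peak is a fold (ratio over background), and its p-value and q-value are deposited as −log10. Aligner, peak caller and depth: not given in the sources used here. Depth can change how many bases are called.

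Gene models came from GENCODE M21, with the longest record kept for each of 21911 coding symbols and 27 records left out. Covered shares were computed with python 3.11.15 and numpy 2.4.6 and tested on simulated peaks. Exons were merged over transcripts. Genes under 3 kb were left out of the values by part. Uniqueness was read from up to 400 words of 32 bases per gene. Coordinates are 1-based. Sequences came from RefSeq's GRCm38.p6 genome and promoter table, the assembly that mm10 names; the cells are of another strain than the reference. Proteins were not used here.

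The 2 replicates form 1 group, so there is no contrast between samples and no p-value. Members and lists were chosen with earlier results of these data known. Every member could be named. Given in full were the highest and lowest of each role, unmarked genes, the paralog pairs, the 5 widest replicate gaps, the 3 largest and smallest rises, the 5 highest folds and genes overlapped over 10% or more; of each related list, the 2 highest, the 2 lowest and unmarked genes, except for an item not reported here. Alternatives changed the peak set, the q-value minimum, the 10% threshold, the bases or span counted, the windows and the replicates used.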

Additional observations from a re-analysis of the deposited data

How the results depend on the processing

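No paired analysis was possible because the study has 1 group. The count of 40 marked genes was 40 with the unthresholded sets of the other processing run, 40 with the set found in both replicates and 40 without either replicate. It was 39 with a −log10 q of at least 5 (Med14 lost), 39 over bases in no other coding gene (Med20 lost, with 7 bases left) and 39 over principal transcripts, an alternative chosen after seeing the data (Med21 lost). At thresholds of 5%, 25% and 50% it was 40, 37 and 26. The median covered share was 71.1% in the set found in both replicates. The rise along the gene was 73.3 points from part 1 to part 10 of 10, the exon to intron ratio 1.43 with genes weighted equally, and coverage within 1000 bp of the start 2.36%. The median distance to the first covered base was 1369 bp in the unthresholded sets and 1626 bp at the q-value minimum.

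Leaving out either replicate gave 63.7% to 67.4% for the median share, 44.5 to 47.9 points for the rise, 1.53 to 1.75 for the ratio, 0.504% to 0.529% for the start window, 1599 to 1620 bp for the first covered base and 73 to 75 marked genes of the related lists. The number of libraries limits the precision of every value, and shares rest on what was called as a peak.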
